A study of Drosophila melanogaster with 8 samples.

Results

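The regions described here are the H1-enriched regions on the body of chromosome arm 3L in Drosophila melanogaster embryos, defined as those of the combined region list with a midpoint between 1 Mb and 22.9 Mb on the arm (FlyBase r5). These limits take in 21.9 Mb of the 24.5 Mb of the arm. They leave out 1 Mb at the telomere end, where coordinates start, and 1.64 Mb at the centromere end. The combined list held 2635 such regions, 16.3% of its 16190. On the same stretch there were 449 of the 2820 regions in the list of replicate 1, 350 of 2185 in that of replicate 2, 484 of 2886 in that of replicate 3 and 517 of 3410 in that of replicate 4. Chromatin came from whole wild-type embryos of the Oregon-R strain (Oregon-R-modENCODE) aged 14 to 16 h, so all cell types of the embryo contribute to each value. There were 4 libraries precipitated with an antibody to histone H1, each with an input library whose values are not analysed here. Nothing in the labels ties the replicates to separate collections of embryos, so p-values measure only the spread between these libraries, which may be technical.

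H1 is the linker histone, which binds a nucleosome where the DNA enters and leaves it and helps to fold nucleosome chains into more compact chromatin. In Drosophila it is found throughout the chromosomes, with heterochromatin around the centromeres known as a rich site, and it is typically reduced at the promoters of active genes. The body of 3L is mostly euchromatin, in which gene-rich open stretches alternate with compact stretches poor in active genes. A region in these lists is a place where the authors called enrichment, at widths of 1 kb or more. The lists hold no read counts and the depth is unknown, so sequence without a region is not shown to lack H1. No sequence or gene is given for the positions below, because the lists are on FlyBase r5 while the gene table at hand is on Release 6.

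Regions covered 3.42%, 2.49%, 3.59% and 3.96% of the 3L body in replicates 1 to 4, a mean of 3.37% ± 0.63 (SD, n = 4). The combined list covered 22.5%. Replicate 2 had the lowest share and replicate 4 the highest. Against the bodies of the other arms, limited in the same way at both ends, 3L stood in the middle when all regions were counted. The 3L body had a lower share than 2L (4.27% ± 0.86) and 3R (4.40% ± 0.75), with log2 ratios of -0.34 ± 0.06 and -0.39 ± 0.09 that were negative in 4 of 4 replicates (SD, n = 4). It had a higher share than 2R (2.83% ± 0.56) and X (1.76% ± 0.29), with log2 ratios of 0.25 ± 0.07 and 0.93 ± 0.13 that were positive in 4 of 4 replicates (SD, n = 4). Each of these comparisons had an exact two-sided p of 0.13 when signs were permuted, adjusted 0.156 over 5 comparisons. That is the smallest unadjusted p that 4 replicates allow, so no comparison could pass 0.05. Against the other 4 bodies together the log2 ratio was -0.02 ± 0.07, positive in 2 of 4 replicates (exact p = 0.75). It turned to 0.02 in the combined list, and to 0.0033 without replicate 2. The place of 3L depended on the regions counted. When only those at or above the median score were kept in each list, 3L and X were not told apart, with a log2 ratio of 0.02 ± 0.22 that was positive in 2 of 4 replicates (SD, n = 4; exact permutation p = 0.875). The ratio to 2R was then 0.15 ± 0.15, positive in 3 of 4, and the ratio to the other 4 bodies together was -0.22 ± 0.14, negative in 4 of 4 (SD, n = 4; exact permutation p = 0.13). With equal numbers of the highest-scoring regions per list, the ratio to X was 0.64 ± 0.17, positive in 4 of 4 (SD, n = 4). The ratio to the other 4 bodies together was then -0.06 ± 0.03, negative in 4 of 4 (SD, n = 4). Replicate 2, the smallest list, keeps all its regions in that setting, so its values are those of all regions.

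The first question was whether coverage changes along the arm. With all regions counted, no common direction appeared among the replicates. A line through the windows of 100 kb had a slope toward the centromere of 0.0047, -8.7e-05, -0.012 and 0.030 percentage points per Mb in replicates 1 to 4, a mean of 0.0058 ± 0.018 (SD, n = 4; exact permutation p = 0.75). From end to end of the body these lines changed by 3.00%, -0.076%, -7.05% and 16.6% of the body share. Without replicate 4 the mean slope turned to -0.0023 percentage points per Mb. The distal, middle and proximal 7.3 Mb were covered at 3.47% ± 0.54, 3.27% ± 0.78 and 3.36% ± 0.61 in the replicate lists (SD, n = 4). The same stretches had 23.1%, 22.3% and 22.1% in the combined list. The proximal minus distal difference was -0.23, -0.12, -0.36 and 0.29 percentage points in replicates 1 to 4 (exact permutation p = 0.5). Combined regions also hardly differed between these stretches, with 882, 883 and 870 regions, median widths of 1546.5, 1513 and 1499.5 bp, and median scores of 0.39, 0.40 and 0.39 from the distal to the proximal stretch.

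When the lower-scoring regions of each list were dropped at its median score, the slope was negative in 4 of 4 replicates, at -0.033 ± 0.0082 percentage points per Mb (SD, n = 4). Keeping equal numbers of the highest-scoring regions per list gave -0.024 ± 0.016 (SD, n = 4), also negative in 4 of 4. Replicate 2, the smallest list, keeps all its regions in that setting, so its slope stayed at -8.7e-05, close to flat. The proximal minus distal difference was also negative in 4 of 4 replicates in both settings. It was -0.61 ± 0.19 percentage points with the lower-scoring regions dropped and -0.52 ± 0.29 with equal numbers (SD, n = 4), against -0.11 ± 0.28 with all regions. In replicate 2 it was -0.12 both with all regions and with equal numbers. Each of these 4 results had an exact permutation p of 0.13, the smallest possible. Whether coverage falls toward the centromere therefore depended on which regions were counted. The score is the authors' own value for each region, and its scale is not given in the sources.

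The 3L slope lay between those of the other arms. Toward the centromere the slope was 0.054 ± 0.030 percentage points per Mb on 2L, -0.024 ± 0.019 on 2R, -0.051 ± 0.029 on 3R and 0.013 ± 0.028 on X (SD, n = 4). The slope of 3L minus that of 2L was -0.048 ± 0.029, negative in 4 of 4 replicates. The slope of 3L minus that of 3R was 0.056 ± 0.039, and minus that of 2R 0.030 ± 0.022, both positive in 4 of 4 (SD, n = 4). Each had an exact permutation p of 0.13, adjusted 0.167 over 4 comparisons. The difference from X was -0.0076 ± 0.013 (SD, n = 4; exact p = 0.375, adjusted 0.375), and it turned to 0.018 when the proximal 2 Mb were left out. It was -0.045 ± 0.026 without the lower-scoring regions and -0.036 ± 0.032 with equal numbers (SD, n = 4), negative in 4 of 4 both times. With equal numbers replicate 2 kept all its regions, so its difference was unchanged. For 2R the difference turned to -0.0047 without the lower-scoring regions.

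**Figure D1:**
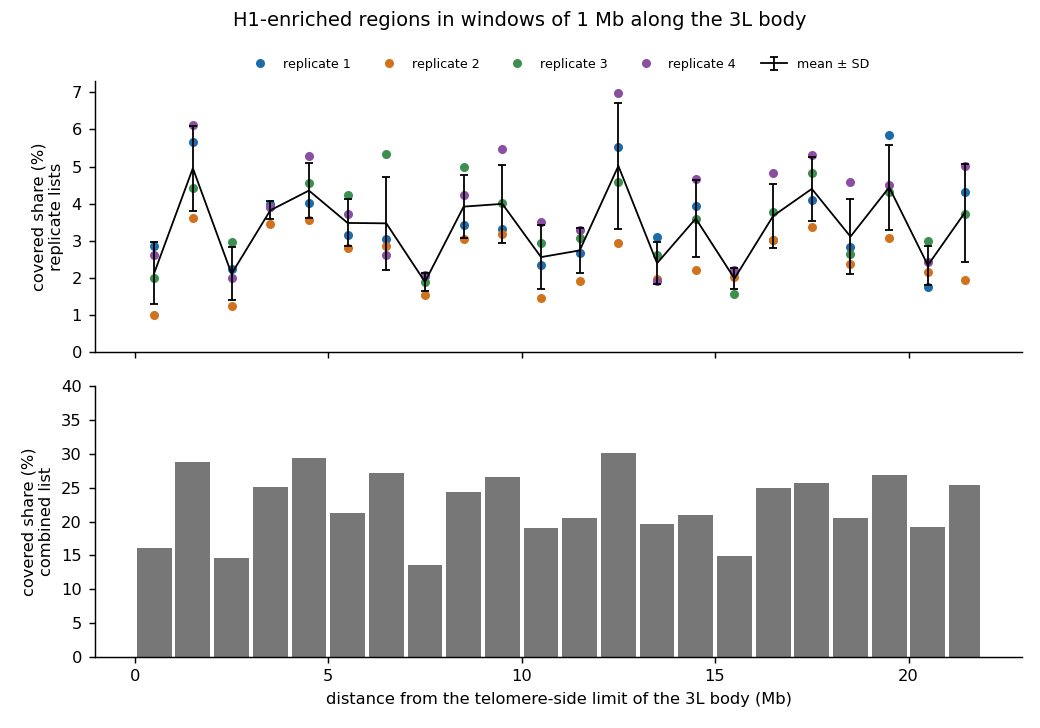
Covered share (%) of the 3L body in windows of 1 Mb against the distance from the telomere-side limit of the body (Mb); in the upper panel points are the 4 replicate lists and the line with error bars is their mean ± SD, and grey bars in the lower panel are the combined list (the last window is 0.9 Mb). Shares move up and down between 13.6% and 30.2% in the combined list with no steady trend along the arm.

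The windows of 1 Mb showed peaks and troughs beside each other. The most covered window was 3L 13000001-14000000, at 5.53%, 2.95%, 4.59% and 7.00% in replicates 1 to 4, and its combined share was 30.2%. Next in the replicate mean was 2000001-3000000, at 5.65%, 3.61%, 4.42% and 6.13%. The least covered was 8000001-9000000, at 2.06%, 1.54%, 1.88% and 2.08%, and 13.6% in the combined list. In each list the values of that trough lay below those of both peaks. Of the 22 windows, 6 lay above the body share of the list in 4 of 4 lists, 8 lay below it in 4 of 4, and 8 were mixed. No count for the other arms is given at this size, so these counts are not a result about 3L in particular. On this grid neighbouring windows of 1 Mb tended to differ. The correlation of the combined share between a window and the next was -0.45 over 22 windows. It ran from -0.47 to -0.28 in the replicate lists. The grid was not moved at this size, so this describes the present grid only. Windows share their libraries and are not replicates, so no p is given here or for other correlations across windows.

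The second question was how dense and sparse stretches are placed at the scale of 50 to 200 kb. Coverage was uneven at this scale. In windows of 100 kb the combined share ran from 0% to 66.6%, with a median of 19.1%, 10% of windows under 4.42% and 10% over 46.6%. In windows of 50 kb it reached 75.1%, and 22 of 438 windows held no combined base. In windows of 200 kb it ran from 1.28% to 54.6%. Dense stretches were short: the correlation of a window with the next was 0.47 for windows of 50 kb, 0.29 for 100 kb and 0.03 for 200 kb. With a window between, it was 0.18 for 50 kb and -0.05 for 100 kb. The replicate lists gave 0.23 to 0.34 for neighbouring windows of 50 kb and -0.11 to 0.12 for 200 kb.

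**Figure D2:**
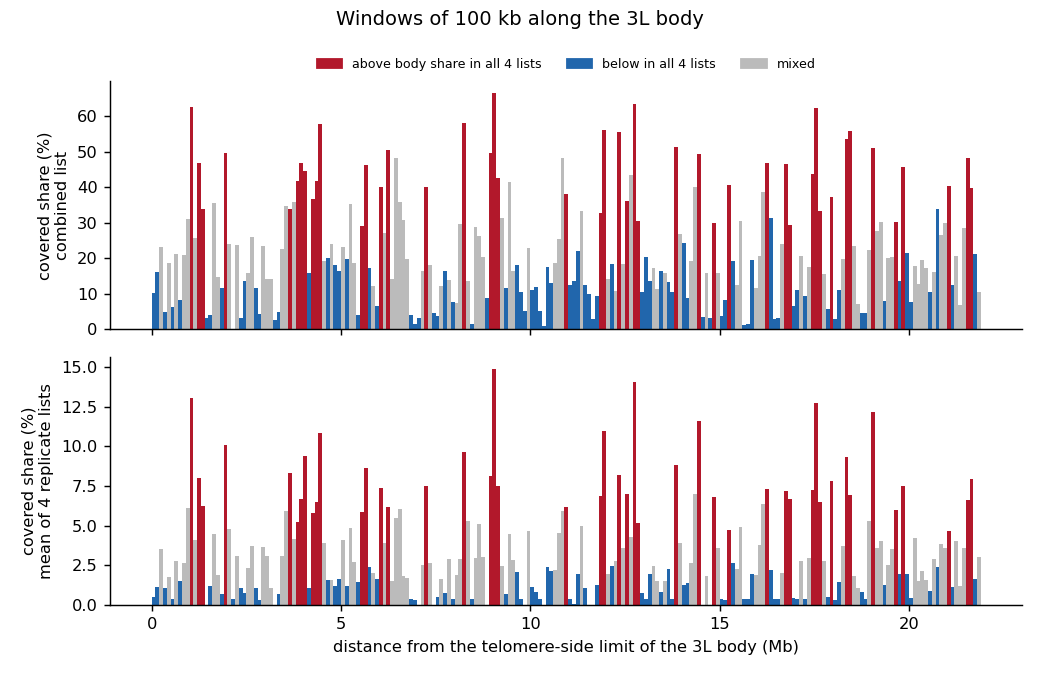
Covered share (%) of the windows of 100 kb along the 3L body, in the combined list (upper panel) and as the mean of the 4 replicate lists (lower panel), against the distance from the telomere-side limit (Mb). Red bars are the 46 windows above the body share of the list in all 4 replicate lists, blue bars the 85 windows below it in all 4, and grey bars the rest; red bars stand singly or in runs of at most 3 windows.

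Many windows lay on the same side of the body share in all replicates. Of the windows of 100 kb, 46 (21.0%) lay above the body share of the list in 4 of 4 replicate lists, where the background over the 5 arm bodies was 18.5%. Another 85 (38.8%) lay below it in 4 of 4, against a background of 39.6%, and 11 (5.02%) held no covered base in any replicate list, against 6.8%. These shares are close to the background and are not a result about 3L in particular. The background is the same count over the arms, not a rate expected without agreement between lists. The 46 windows formed 31 runs, of which 20 were single windows and 4 were runs of 300 kb, the longest. The 85 windows formed 51 runs, the longest of 600 kb at 11000001-11600000, covered at 1.53%, 1.08%, 0.78% and 1.13% in replicates 1 to 4 and at 9.97% in the combined list. Pearson's r between the window shares of 2 replicates ran from 0.54 to 0.73 over the 6 pairs at 100 kb, and Spearman's rho from 0.56 to 0.68. The experiment numbers in the labels fall into 2 sets: replicates 1 and 2 carry 1715 and 1725, while replicates 3 and 4 carry 2291 and 2292. Within these sets r was 0.54 and 0.73, and across them 0.63 to 0.68.

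To measure dense windows in a list that had not chosen them, the 22 windows (10%) with the highest mean share in 3 lists were measured in the list left out. They were covered at 9.09%, 6.96%, 9.06% and 12.0% in replicates 1 to 4, against 3.42%, 2.49%, 3.59% and 3.96% for the whole body. The ratio was 2.75 ± 0.22 (SD, n = 4), with a log2 ratio of 1.46 ± 0.11 that was positive in 4 of 4. The 22 or 23 windows with the lowest mean share in 3 lists, ties included, were covered at 0.96%, 0.52%, 1.01% and 0.58% in the list left out. Their ratio to the body was 0.23 ± 0.065 (SD, n = 4), below 1 in 4 of 4. Both had the smallest two-sided p possible in the exact permutation test over 4 replicates, 0.13. The lists that chose the windows overlap between the 4 measurements, so these values are not fully independent. Of the windows chosen as dense, 14 were chosen for all 4 measurements and 6 for only 1. The choice of sparse windows was less stable, with 11 chosen for all 4 and 31 for only 1. With windows of 50 and 200 kb the dense ratio was 3.04 ± 0.17 and 2.31 ± 0.047, and the sparse ratio 0.21 ± 0.032 and 0.20 ± 0.070 (SD, n = 4). At 50 kb, ties at 0 made the sparse set 93 to 102 of 438 windows, so it is not the lowest 10% there.

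In the list left out, dense windows differed from the body in the number of regions far more than in their width. They carried 54.9 ± 10.8 regions per Mb, against 20.5 ± 3.30 per Mb for the body (SD, n = 4), a ratio of 2.67 ± 0.25. Their median width was 1542 ± 49.3 bp, against 1511 ± 25.8 bp for the body (SD, n = 4). On the body the shortest region of a list was 1301 to 1304 bp, and the 90th percentile of width 2042 ± 131 bp (SD, n = 4). Widths therefore had little room to differ between windows in these lists. The sparse windows carried 5.04 ± 1.38 regions per Mb, with a median width of 1444 ± 45.8 bp (SD, n = 4). That width rests on 14, 8, 14 and 9 regions in replicates 1 to 4. In the combined list the windows were ranked by their share in that same list. Number and width of regions both make up this share, so both rise with it largely by this choice. The 44 windows of highest share held 21.3 regions per 100 kb with a median width of 1812 bp, and the 44 of lowest share 3.5 regions with a median width of 1219 bp. These 44 windows of highest share held 42.3% of all covered bases of the combined list, and 47.9% ± 2.58 of those of the replicate lists (SD, n = 4). The median score was 0.39 in the 44 windows of highest share and 0.40 in the 44 of lowest.

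The contrast between dense windows and the body did not set 3L apart from the other arms. The log2 ratio of held-out dense windows was 1.46 ± 0.11 on 3L, against 1.51 ± 0.04 on 2L, 1.30 ± 0.12 on 2R, 1.35 ± 0.11 on 3R and 1.55 ± 0.18 on X (SD, n = 4). The difference of 3L from these ran from -0.09 ± 0.25 for X to 0.16 ± 0.19 for 2R, with exact permutation p from 0.25 to 0.5 (adjusted 0.5 for each over 4 comparisons). With 4 replicates these tests cannot show that the arms are alike.

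**Figure D3:**
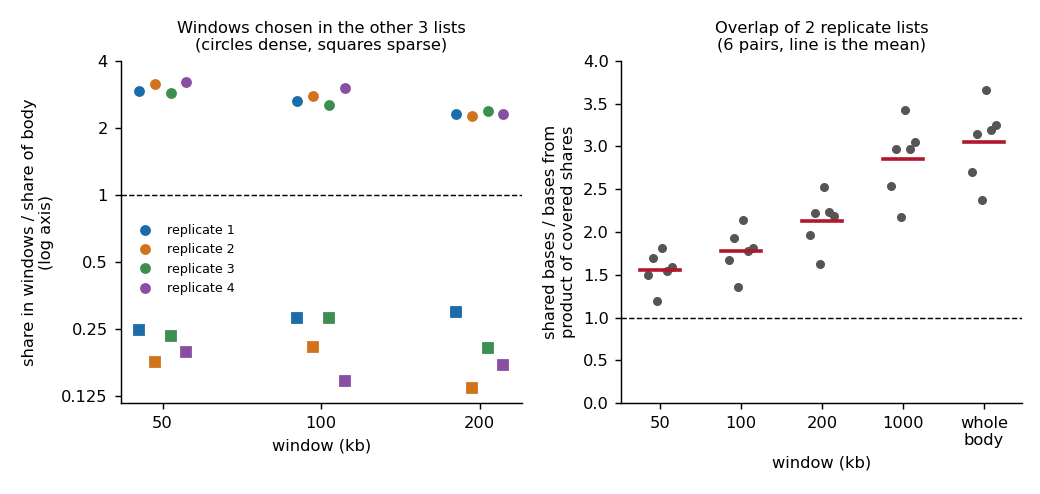
Left, the covered share of dense (circles) and sparse (squares) windows chosen in the other 3 lists, over the share of the body (log axis), for windows of 50, 100 and 200 kb; each point is 1 replicate list, and all circles lie above 1 and all squares below it. Right, the bases shared by 2 replicate lists over those given by the product of their covered shares within windows, for 6 pairs with the mean as a line, which falls from 3.06 for the whole body to 1.56 for windows of 50 kb.

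The 8 most covered windows of 100 kb in the combined list lay apart from each other, spread from 2.0 to 19.5 Mb, and each carried 20 to 27 combined regions. The densest, 10000001-10100000, was covered at 66.6% in the combined list and at 8.75%, 13.9%, 17.1% and 19.8% in replicates 1 to 4. Its 22 regions had a median width of 2316.5 bp and a median gap of 323 bp. It sits in the run 9900001-10200000 of 300 kb, which was covered at 53.0% in the combined list and above the body share in all 4 lists. Window 13700001-13800000, at 63.4% in the combined list, was covered at 12.3%, 8.63%, 14.6% and 20.7% in the replicates. Window 2000001-2100000, at 62.7%, was covered at 18.3%, 4.41%, 10.8% and 18.6%, so replicate 2 had less than 50% of the next lowest value there. Window 18500001-18600000, at 62.5%, was covered at 13.9%, 5.94%, 15.7% and 15.4%, with replicate 2 again the lowest. The most even of the 8 was 9200001-9300000, at 58.1% in the combined list and 10.0%, 10.4%, 9.85% and 8.16% in the replicates. The other 3, at 5400001-5500000, 12900001-13000000 and 19400001-19500000, had combined shares of 58.0%, 56.2% and 55.8%. Replicates 1 to 4 covered 6.67%, 12.1%, 11.5% and 13.2% of the first, 5.97%, 9.76%, 13.5% and 14.6% of the second, and 4.09%, 5.14%, 5.73% and 12.9% of the third. These windows were picked for their combined share, and the combined list cannot be taken as independent of the libraries, so their values are a description.

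The 8 least covered windows formed 7 stretches, from 3.1 to 16.8 Mb, with 0 to 2 combined regions each. Window 3100001-3200000 had no combined base, and only replicate 2 had a region there, which covered 1.50%. In 4200001-4300000, 11300001-11400000 and 12600001-12700000 the combined shares were 2.57%, 1.00% and 2.79%, and no replicate list had a region. The stretch 16600001-16800000, the only pair of adjacent windows, was covered at 1.28% in the combined list, with 1 region each in replicates 2 and 4. Windows 7900001-8000000 and 9400001-9500000 had combined shares of 1.43% and 1.40% and a region in replicate 2 and in replicate 1. Dense and sparse windows could stand close: 9200001-9300000 and 9400001-9500000 have 1 window between them, at 13.6% in the combined list. The replicate shares ran from 4.09% to 20.7% in the dense windows and from 0% to 1.56% in the sparse ones, a separation that the choice by combined share largely fixes. In combined share every other window falls between these sets by the same choice. The 16 windows beside the dense windows had a median combined share of 31.8%, and the 14 beside the sparse stretches 13.8%. Window 9300001-9400000 is counted in both of these groups of flanks.

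**Figure D4:**
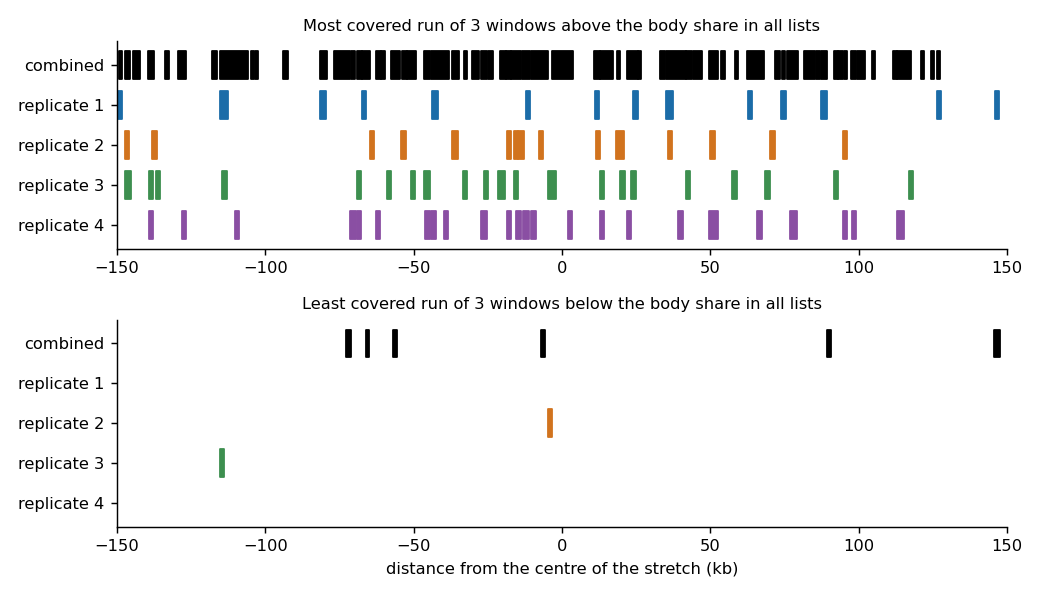
Positions of regions in the combined list and the 4 replicate lists within 150 kb of the centre of 2 stretches of 300 kb, 3L 9900001-10200000 (upper panel) and 3L 7800001-8100000 (lower panel). The first holds 64 combined regions and regions of every replicate; the second holds 6 combined regions, 1 region each in replicates 2 and 3, and none in replicates 1 and 4.

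The third question was the spacing and width of the regions. In the combined list the 2635 regions lay 120.3 per Mb, with a median gap of 2211.5 bp to the next region and a median distance of 4306 bp between midpoints. The mean gap, 6439 bp, was 2.91 times the median, and 831 gaps (31.5%) were under 1 kb. Joining regions across such gaps put 1352 regions (51.3%) into 521 chains of 2 or more. The longest chain, 3L 3005370-3031501, ran for 26132 bp with 7 regions that covered 90.7% of it, and replicates 1 to 4 covered 30.1%, 10.6%, 24.2% and 8.03% of it. This chain borders the longest gap of the body, described next. In the replicate lists the median gap was 19876, 24192, 18465 and 15438 bp, a mean of 19493 ± 3639 bp (SD, n = 4), and the mean gap was 2.45 ± 0.11 times the median. Gaps of 50 kb or more took up 15.3% of the body in the combined list and 72.9% ± 4.01 of it in the replicate lists (SD, n = 4).

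The longest stretch without a combined region was 3L 3031502-3203776, of 172275 bp. Replicate 2 alone had a region in it. The next, 9326683-9465614 (138932 bp) and 17443714-17578450 (134737 bp), each held 1 region of replicate 3 and none of the others. The fourth, 11314869-11417458 (102590 bp), held no region of any replicate list, and 7778567-7877138 (98572 bp) held 1 of replicate 3. The combined list cannot be taken as independent of these libraries, so the low number of replicate regions in these 5 gaps is a description. When the 4 replicate lists were pooled, they covered 11.6% of the body and left a longest gap of 248313 bp at 12457469-12705781, in which the combined list had 11 regions that covered 6.13%.

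**Figure D5:**
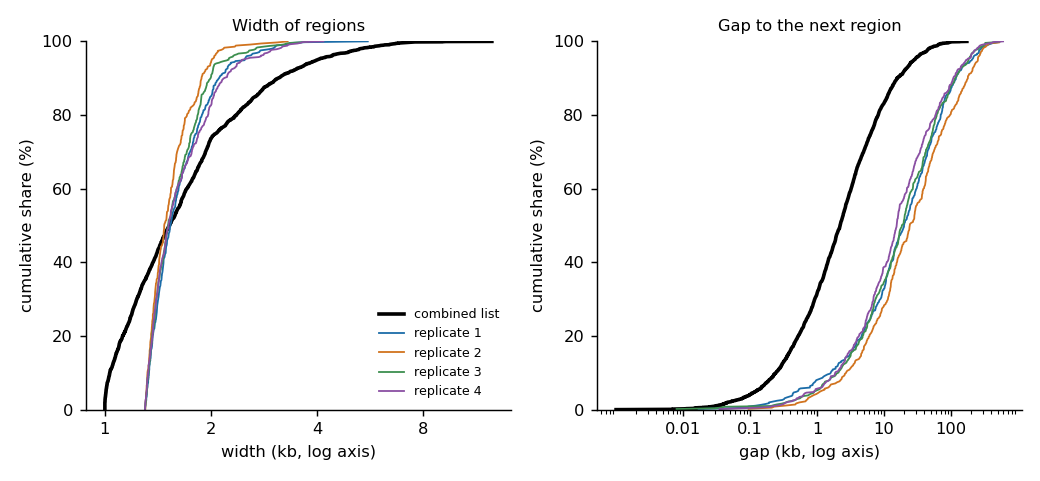
Cumulative share (%) of regions on the 3L body by width (left, kb) and of gaps by length (right, kb), both on log axes, in the combined list (black) and the 4 replicate lists (colours). The replicate curves start at 1.3 kb in width while the combined curve starts at 1.0 kb and reaches further right, and the median gap is 2.2 kb in the combined list against 15.4 to 24.2 kb in the replicate lists.

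Widths were similar between replicates and had a lower limit. The median width was 1537, 1475.5, 1513.5 and 1518 bp in replicates 1 to 4 (mean 1511 ± 25.8 bp, SD, n = 4), with a shortest region of 1301 to 1304 bp. In the combined list the median was 1525 bp, but the range was wider, from 1001 to 12533 bp. Of the combined regions, 928 (35.2%) were at most 1300 bp wide, narrower than any replicate region, and 133 (5.05%) were 4 kb or wider and held 14.5% of the covered bases. The replicate lists had 1, 0, 0 and 1 region of 4 kb or wider. The widest, 3L 2007295-2019827 (12533 bp), lay in the dense window 2000001-2100000, and replicates 1, 3 and 4 covered 42.6%, 20.5% and 40.3% of it. The next, 9934788-9944070 (9283 bp), was covered at 27.4%, 19.7% and 15.0% by the same lists, and replicate 2 had no region there. Region 18461295-18470418 (9124 bp) was touched by all 4 lists, at 33.5%, 19.2%, 17.9% and 22.4%. Replicates 2, 3 and 4 covered 7.42%, 24.2% and 60.0% of 2324707-2333791 (9085 bp). In the last of the 5 widest, 19297499-19305077 (7579 bp), only replicate 1 had regions, which covered 73.5% of it.

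Support of combined regions by the replicate lists was near that of the whole series. On the 3L body 1 or more replicate lists touched 1146 regions (43.5%), where the background over all combined regions was 44.2%. At least 3 lists touched 93 (3.53%, background 3.56%) and all 4 lists touched 19 (0.721%, background 0.729%). Leaving out replicate 1, 2, 3 or 4, the number touched by every remaining list was 41, 42, 35 and 32. Support moved with width: 20.2% of regions of at most 1300 bp were touched, 43.9% of those from 1301 to 2000 bp, 69.5% of those from 2001 to 4000 bp and 93.2% of wider ones. Wider regions are touched more readily by any list. The 19 regions touched by all lists had a median width of 3984 bp and lay in the distal (5), middle (4) and proximal (10) 7.3 Mb.

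The 10 of these 19 with the highest score had scores between 0.44 and 0.57. The first was 3L 22518914-22522058 (3145 bp), near the centromere end of the body, and replicates 1 to 4 covered 51.5%, 41.7%, 47.9% and 47.8% of it, a narrow spread. Next came 11942678-11946045 (3368 bp), at 45.9%, 56.2%, 55.4% and 59.7%. The cover of the others was less even. Region 4653208-4655976 had 48.3%, 17.2%, 3.39% and 55.6%, and region 2041726-2044713, inside the dense window 2000001-2100000, had 81.8%, 49.7%, 11.8% and 61.2%. Region 9309221-9312161 had 67.2%, 12.3%, 80.9% and 60.5%, and region 6588448-6592169 had 79.9%, 2.55%, 52.9% and 40.9%, so an edge of a replicate region was enough to count there. The other 4 lay at 5497320-5503998, 13844001-13850209, 2922926-2927446 and 18461295-18470418. The 8 combined regions with a score of 1 or more had a median width of 1015.5 bp, and none was touched by a replicate list. Of all regions of at most 1300 bp only 20.2% were touched, so most narrow regions were untouched as well. The highest, 3.05 at 12950899-12951912, lay inside the dense window 12900001-13000000. These 8 were chosen after their values were seen.

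In the opposite direction, the combined list touched 430 of 449 regions of replicate 1 (95.8%) and 491 of 517 of replicate 4 (95.0%), but 260 of 350 of replicate 2 (74.3%) and 375 of 484 of replicate 3 (77.5%). This split does not follow the experiment numbers. At the scale of 100 kb the split was not seen. The share of the combined list correlated with that of replicates 1 to 4 with r of 0.78, 0.74, 0.80 and 0.83 over all windows. The order changed with the scale. At 50 kb r was 0.72, 0.66, 0.71 and 0.78, with replicates 4 and 1 highest. At 1 Mb it was 0.78, 0.85, 0.87 and 0.82, with replicates 3 and 2 highest. The regions of replicates 2 and 3 outside the combined list lay in windows with a median combined share of 20.6% and 22.9%, against a median of 19.1% over all windows and 28.8% over the windows of the combined regions. Those inside it lay in windows of 40.1% and 35.9%, which are raised by the combined regions they overlap. Another replicate list touched 8 of the 90 outside regions of replicate 2 and 14 of the 109 of replicate 3, against 149 of 260 and 195 of 375 of the inside ones. For replicates 1 and 4 these were 0 of 19 and 2 of 26 outside, against 169 of 430 and 197 of 491 inside. The combined list cannot be taken as independent of the libraries, so more agreement inside it is partly fixed and is a description.

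Finally, the overlap of replicate lists was measured over the whole body and within windows. The bases shared by 2 replicate lists made up 5.30% of the bases in either (range 4.06% to 6.52% over 6 pairs). They were 3.06 ± 0.45 times the bases given by the product of both covered shares of the body (SD over 6 pairs, which share lists). With the product taken within windows, so that shared dense windows are counted in it, the ratio was 2.85 ± 0.44 for 1 Mb, 2.13 ± 0.30 for 200 kb, 1.78 ± 0.26 for 100 kb and 1.56 ± 0.21 for 50 kb (SD over 6 pairs). The lowest pair was replicates 1 and 4 at each of these sizes, at 1.20 for 50 kb, and the highest was replicates 2 and 3, at 1.82. A shared region raises both covered shares of its own window, so the ratio falls with smaller windows partly by construction. The fall therefore cannot separate shared dense windows from shared single regions. These ratios are a description with no test.

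At both limits of the body, the combined share was lower in the 100 kb just inside than in the 100 kb just outside. The 100 kb just inside the telomere-side limit were covered at 10.3% in the combined list and 0.48% ± 0.95 in the replicates, against 36.8% and 4.28% ± 1.89 just outside it (SD, n = 4). The 100 kb just inside the centromere-side limit were covered at 10.6% and 2.99% ± 2.56, against 34.4% and 4.20% ± 1.82 just outside it (SD, n = 4). At the centromere side the replicate means differed by less than their spread.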

How the data were processed

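The submitters' processing notes name Bowtie 0.12.7, the aligner. Per the file headers, coordinates are on FlyBase r5. The authors deposited lists of enriched regions with 1 score per region, for each immunoprecipitated library and for the set of replicates. The region caller, its thresholds, the scale of the score and the way replicates were combined are not given in the sources. All listed regions were used, and bases under more than 1 region were counted once. The tools were Python 3.11.15 with scipy 1.17.1 and numpy 2.4.6, and pandas 2.3.3 and matplotlib 3.10.9 for tables and plots. Covered share is covered bases over length, without correction for gaps or repeats. The replicate list was the unit of every test, a two-sided exact permutation test that flips the signs of the 4 values, with Benjamini-Hochberg adjustment within a family. Slopes are least-squares fits over windows. The calculations of slopes and held-out windows were checked on simulated lists, which is not a test of the results themselves. Windows, regions and gaps were named by rule: the 8 most and 8 least covered windows of 100 kb of the combined list, the 10 highest-scoring regions touched by all lists, the 5 widest regions and the 5 longest gaps. Regions and lists were chosen with earlier results of these data known. The comparison of dense windows between arms and the overlap within windows were added after the results were seen. No regions had identical limits in 2 replicate lists (0 found).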

Additional observations from a re-analysis of the deposited data

Results flagged for a closer look

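Among 82 sets of 4 replicate values, 2 held a value far from the other 3, where chance would give about 4.1. Replicate 3 covered 5.33% of 3L 7000001-8000000, where the other lists covered 2.62% to 3.06%. For the slope of 3L minus that of X, replicate 3 gave 0.012 percentage points per Mb, where the others gave -0.016 to -0.011. The cause was not tested in either case.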

How the results depend on the processing

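Of 164 recomputed values for 20 results, 143 kept their direction, or stayed within 1 SD of the replicates or, for counts, within 1.5 times. Since p cannot go below 0.13, tested results were judged by direction alone, and 7 values changed direction. The cause of these changes was not tested. The slope of 3L was -0.0333 percentage points per Mb without regions under the median score, -0.0237 with equal numbers of regions and -0.0023 to 0.0116 without 1 replicate. The log2 ratio of 3L to the other arms together was 0.019 in the combined list, -0.22 without regions under the median score, -0.06 with equal numbers of regions and -0.0457 to 0.0033 without 1 replicate. The median-score and equal-number settings gave -0.61 and -0.52 for proximal minus distal share, against -0.11, and the median-score setting gave 0.02 for the log2 ratio of 3L to X. Slope differences turned to -0.0047 for 2R (median score) and 0.0183 for X (proximal 2 Mb left out). Without regions under the median score, which leaves fewer regions, covered share was 1.53%, median width 1592 bp, median gap 52814 bp, and the number of windows above the body share in every list 22, an alternative chosen after the results were seen. With equal numbers of regions these were 2.57%, 1546.5 bp and 26931 bp for share, width and gap. The combined list gave a share of 22.5%. Regions touched by every list numbered 0 with 50% overlap, 0 above the median score and 32 to 42 without 1 replicate. The dense log2 ratio ran from 1.37 to 1.50 without 1 replicate and the sparse one from -2.46 to -1.83. No paired analysis was possible because only the precipitated libraries, and no inputs of the same number, were analysed here, while arms were compared within each list. The read depth is unknown, so a sparse stretch may hold H1 below the limit of detection.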
